A study of Homo sapiens with 4 samples.

Results

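The complement components C3, C1R, C1S and CFB, the soluble regulators CFI and SERPING1 and the membrane regulators CD46, CD55 and CD59 were followed in U87 cells after knockdown of PTPRN. These 9 genes were taken by their symbols from the 19314 genes listed in the deposited table, and all 9 were among the 16595 genes with a value. The choice used no measured value, but it was made with earlier results of these data known. U87 is an established human glioma cell line. RNA was sequenced from 2 libraries labelled PTP2, with the genotype PTPRN knockdown, and from 2 libraries labelled SCR, the control. According to the methods of the study, hairpins against PTPRN were cloned in the pLKO.1 vector and the control hairpin had a scrambled sequence. The labels do not say which hairpin the PTP2 libraries carry or whether the cells were a clone. By the labels the libraries of the 2 groups share the cell line, and by the general methods of the study also the vector. The labels do not say whether the replicates came from separate cultures, so the p-values measure only the spread between these libraries. The groups were compared to ask how knockdown of PTPRN changes the transcriptome of these cells. Both knockdown libraries carry the label PTP2, with SCR as the only control. Loss of PTPRN and other effects of the hairpin therefore cannot be told apart.

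Complement is a chain of secreted proteases and binding proteins that marks surfaces for removal or lysis. In the classical pathway the proteases C1r and C1s, bound to C1q, cleave C4 and C2. In the alternative pathway factor B joins C3b to form a convertase, and every pathway meets at the cleavage of C3. Host cells hold the chain in check with the C1 inhibitor (SERPING1), with factor I, which cuts C3b and C4b, and with CD46, CD55 and CD59 on their own surface. The liver supplies most of the plasma proteins, while astrocytes and many cultured glioma cells also make complement components. The transcripts measured here say nothing of protein, cleavage or deposition.

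The estimated depth was 18000000 and 17960000 reads for the PTP2 libraries and 19540000 and 17960000 reads for the SCR libraries, as read from the steps that single reads leave in the FPKM of short genes. FPKM counts the fragments of a gene relative to its transcript length and to all mapped fragments of the library. The correlation across genes was 0.999 within each group and 0.961 to 0.962 between groups on the log2(FPKM + 1) scale. PTPRN, the targeted gene, had 12.1 and 11.7 FPKM in the PTP2 libraries and 84.8 and 85.0 FPKM in the SCR libraries (log2 fold change -2.74, standard error 0.03, adjusted p = 1.48e-04, limma). The labels name U87, while their growth protocol names hCMEC/D3, a brain endothelial line. None of the 10 endothelial markers reached 10 FPKM in any library, and their summed level was 4.03 to 4.57 FPKM in PTP2 and 4.72 to 4.77 FPKM in SCR. These sums cover shifts both ways. PECAM1 (1.21 and 1.26 FPKM in PTP2, 2.39 and 2.5 in SCR) and VWF (0.06 and 0.05, 0.98 and 0.93) were among those lower in PTP2. KDR (0.87 and 0.85, 0.36 and 0.32) and ERG (0.68 and 0.94, 0.07 and 0.07) were among those higher. Of the 11 astrocyte and glioma line markers with a value, VIM and CD44 were above 10 FPKM in all 4 libraries, whereas the defining astrocyte genes GFAP and S100B stayed below 1 FPKM in each. Genes of that list moved both ways. Among those lower in PTP2 were NES at 3.12 and 3.39 FPKM against 12.96 and 14.24, SOX9 at 2.84 and 2.74 against 10.54 and 10.14, and GFAP at 0.22 and 0.11 against 0.55 and 0.45. VIM was higher in PTP2, and so were CD44 at 315.84 and 313.53 against 151.78 and 151.56, and SLC1A3 at 10.23 and 9.76 against 5.81 and 5.99. At low levels FABP7 (1.61 and 1.15 against 0.23 and 0.49) and OLIG2 (1.15 and 0.91 against 0.54 and 0.5) were also higher in PTP2. The summed level of the list, mostly VIM, was 4896 to 5101 FPKM in PTP2 and 2102 to 2180 FPKM in SCR. Myeloid cells and hepatocytes are rich sources of complement. CD68 was the 1 myeloid marker of 9 measured that reached 10 FPKM. It was higher in PTP2, at 357.45 and 339.95 FPKM against 230.34 and 230.64 in SCR. The other 8 summed to 6.43 to 6.95 FPKM in PTP2 and 7.38 to 7.45 FPKM in SCR, again with shifts both ways. CSF1R was lower in PTP2 (1.96 and 2.17 FPKM against 3.17 and 3.11), as was CD14 (0.22 and 0.35 against 0.89 and 0.8). FCER1G (0.91 and 1.12 against 0.65 and 0.41) was among those higher in PTP2. The hepatocyte markers summed to 0.74 to 0.89 FPKM in PTP2 and 16.7 to 17.5 FPKM in SCR. SERPINA1 gave nearly all of this in SCR, at 17.43 and 16.61 FPKM, and 0.58 and 0.66 FPKM of it in PTP2. Without it the 3 others with a value, ALB included, summed to at most 0.23 FPKM in any library. The epithelial markers summed to at most 1.64 FPKM. The part of these differences in the complement results was not tested.

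Among the 9 genes, C1R, CFB and CFI fell by more than 2-fold in the PTP2 libraries, C1S and CD46 fell by less, and SERPING1 fell from a level that was already low. C3 was 7.07% lower and CD59 9.78% higher, and CD55 did not pass the test. C3 was the most abundant of the 9 in both groups. The study asked for a 2-fold change and a false discovery rate of 0.001, and by this rule, applied on the log2(FPKM + 1) scale with limma, 3 of the 9 genes were called, all 3 lower. Over all 16595 genes tested this was true of 6.69% in either direction and of 4.06% in the lower direction. These 3 calls were lost (0 of the 9 genes and 0 of all genes) with a pseudocount of 0.1 or with any library left out, where 7 and 8 to 9 of the 9 genes still had an unadjusted p under 0.05. The replicate block also left 0 of the 9 genes and 0 of all genes by the 2-fold rule. At an adjusted p of at most 0.05 with no minimum fold change, 8 of the 9 were called, 7 lower and 1 higher, against 57.9% of all genes in either direction and 27.1% in the lower direction. Both PTP2 libraries lay below both SCR libraries for 8 of the 9 genes, against 35.8% of all genes. All of the 9 but SERPING1 had a mean of at least 1 FPKM. Of the 11553 genes with such a mean in either group, 8637 (74.8%) were called at 0.05, 3918 of them lower. By the 2-fold rule 1111 of these 11553 were called, 674 lower, and 4701 had both PTP2 libraries below both SCR libraries. The median log2 fold change of the 9 genes was -0.88, and that of all genes tested was 0.01. In bulk RNA, fewer cells expressing a gene and less RNA per cell cannot be told apart.

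**Figure D1:**
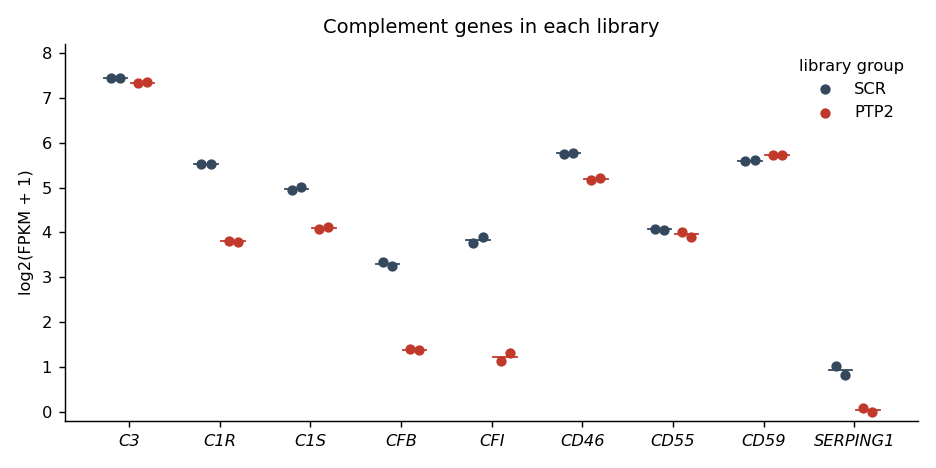
Level of the 9 complement genes in each library, as log2(FPKM + 1) on the vertical axis, with 1 point per library (2 SCR and 2 PTP2 libraries per gene) and a line at the mean of each group. The points of C1R, CFB and CFI stand far apart between groups, while those of C3, CD55 and CD59 lie close together.

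C1R and C1S encode the paired proteases that start the classical pathway. They lie next to each other on chromosome 12 with 9176 bases between them, C1S on the plus strand from 7060661 to 7071032 and C1R on the minus strand from 7080209 to 7092447 (GRCh38). C1R had 12.99 and 12.90 FPKM in the PTP2 libraries and 45.1 and 45.0 FPKM in the SCR libraries. The replicates of each group were nearly equal and the SCR level was 3.48 times that of PTP2 (log2 fold change -1.72, standard error 0.03, adjusted p = 1.69e-04, limma). C1S had 15.8 and 16.3 FPKM in PTP2 and 29.8 and 31.0 FPKM in SCR. Its groups did not overlap either, but the fall was smaller, with an SCR level 1.89 times that of PTP2 (log2 fold change -0.88, 95% interval -0.99 to -0.77, adjusted p = 5.27e-04). The ratio of C1R to C1S in FPKM was thus 0.822 and 0.789 in the PTP2 libraries and 1.51 and 1.45 in the SCR libraries. The order of the pair changed with it, since C1R stood above C1S in both SCR libraries and below it in both PTP2 libraries. In GENCODE 29 the gene C1RL overlaps C1R on the same strand, and how shared reads were assigned is not given in the sources used here. C1RL, a related protease whose position in the table lies 2102 bases from that of C1R, also fell, from a mean of 11.5 to 7.17 FPKM (log2 fold change -0.61, adjusted p = 6.83e-04).

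SERPING1 encodes the C1 inhibitor, the serpin that inactivates C1r and C1s. It lies on chromosome 11 from 57597554 to 57614853 on the plus strand. Its values were 0.06 and 0 FPKM in PTP2 and 1.04 and 0.78 FPKM in SCR. These correspond to about 2 and 0 reads against about 39 and 27 reads, counted on the longest transcript. The groups did not overlap, but the level was the lowest of the 9 genes in every library. The adjusted p was 0.00242 (limma) and the log2 fold change -0.89 with a standard error of 0.08, a value that rests on the pseudocount of 1 and was -2.99 with a pseudocount of 0.1. The call at 0.05 was lost without PTP2 replicate 1 (adjusted p = 0.0569) and without PTP2 replicate 2 (0.0634). No fold is given because 1 of the PTP2 libraries is listed at 0.

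C3 encodes the protein on which all pathways converge. The gene lies on chromosome 19 from 6677835 to 6720682 on the minus strand. It had 160.6 and 161.7 FPKM in PTP2 and 173.5 and 173.3 FPKM in SCR, which is about 14722 to 17266 reads per library. The libraries of a group differed by little and the groups did not overlap, yet the PTP2 mean was only 7.07% below the SCR mean. The log2 fold change was -0.11, with a 95% interval of -0.19 to -0.02 (adjusted p = 0.0409, limma). This call was lost when any of the 4 libraries was left out (adjusted p = 0.0666 to 0.0780) or with a pseudocount of 0.1 (0.0997) or a minimum of 1 FPKM (0.0725), while without any 1 library the log2 fold change stayed between -0.11 and -0.10. With the replicate block the call was also lost (adjusted p = 0.0807, limma). The size of the change depended on the normalization. It was -0.24 with quantile normalization (adjusted p = 0.00634, limma) and -0.15 with median-ratio scaling (0.0158). The interval of the reported fit excludes a fall as large as those of C1R, CFB and CFI.

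CFB encodes factor B, the protease of the alternative pathway convertase. It lies on chromosome 6 from 31945944 to 31952084 on the plus strand. CFB had 1.65 and 1.59 FPKM in PTP2 and 9.15 and 8.58 FPKM in SCR. All PTP2 values were below 2 FPKM and all SCR values above 8 FPKM, and the SCR mean was 5.47 times the PTP2 mean. On the log2 scale CFB changed by -1.91 (standard error 0.04, adjusted p = 2.43e-04, limma), or by -2.38 with a pseudocount of 0.1. About 74 to 77 reads per library stood behind the PTP2 values and about 399 to 463 behind those of SCR. The ratio of C3 to CFB was 97.3 and 102 in PTP2 and 19.0 and 20.2 in SCR. C2, the classical pathway counterpart of factor B, moved the same way, from a mean of 2.94 to 0.73 FPKM (log2 fold change -1.19, or -1.88 with a pseudocount of 0.1, adjusted p = 6.50e-04). GENCODE 29 lists the protein-coding gene AL645922.1 across CFB on the same strand, from 31927698 to 31952048, so that it begins before CFB. Reads of AL645922.1 and CFB may be shared. The deposited position of C2 is on an alternate contig of chromosome 6, and whether C2 shares reads with either gene was not tested.

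CFI encodes factor I, the soluble protease that inactivates C3b and C4b with the help of a cofactor. It lies on chromosome 4 from 109740692 to 109802225 on the minus strand. CFI had 1.21 and 1.5 FPKM in PTP2 and 12.6 and 13.9 FPKM in SCR. It had the largest fold change of the 9 genes among those above 1 FPKM in every library, with an SCR mean 9.78 times the PTP2 mean. The log2 fold change was -2.60 (95% interval -2.85 to -2.35, adjusted p = 3.75e-04, limma), the rank of 60 from the lowest among the 16595 genes tested. With a pseudocount of 0.1 it was -3.20. About 48 and 59 reads stood behind the PTP2 values, so the replicates there are less precise, at 1.36 ± 0.205 FPKM (SD, n = 2). GENCODE 29 lists the protein-coding gene AC126283.2 over most of CFI on the same strand.

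The membrane regulators split. CD46, a transmembrane cofactor for factor I, and CD55, which speeds the decay of convertases, both lie on chromosome 1 on the plus strand, CD46 from 207752038 to 207795516 and CD55 from 207321472 to 207360966. CD46 had 35.2 and 36.3 FPKM in PTP2 and 52.8 and 53.8 FPKM in SCR. All PTP2 values were below all SCR values, by 33.0% of the SCR mean (log2 fold change -0.56, standard error 0.03, adjusted p = 8.70e-04, limma). CD55 had 15.12 and 13.95 FPKM in PTP2 and 16.0 and 15.6 FPKM in SCR. The libraries did not overlap but lay close, and the log2 fold change of -0.11 did not pass the test (95% interval -0.26 to 0.03, adjusted p = 0.137).

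CD59, a GPI-anchored protein that blocks assembly of the membrane attack complex, lies on chromosome 11 from 33703010 to 33736479 on the minus strand. It had 52.0 and 52.2 FPKM in PTP2 and 47.0 and 48.0 FPKM in SCR. It was the 1 gene of the 9 with both PTP2 libraries above both SCR libraries, by 9.78% of the SCR mean (log2 fold change 0.13, 95% interval 0.05 to 0.22, adjusted p = 0.0263, limma). The call was lost without PTP2 replicate 1 (adjusted p = 0.0850), PTP2 replicate 2 (0.0886) or SCR replicate 1 (0.0563), and with a pseudocount of 0.1 (0.0659), median-ratio scaling (0.0795) and quantile normalization (0.153). It was also lost with the replicate block (adjusted p = 0.0546, limma). CD46 and CD59 changed places, with a ratio of CD59 to CD46 of 1.48 and 1.44 in PTP2 and of 0.890 and 0.891 in SCR. AL049629.2, also protein-coding, overlaps CD59 on the same strand in GENCODE 29.

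**Figure D2:**
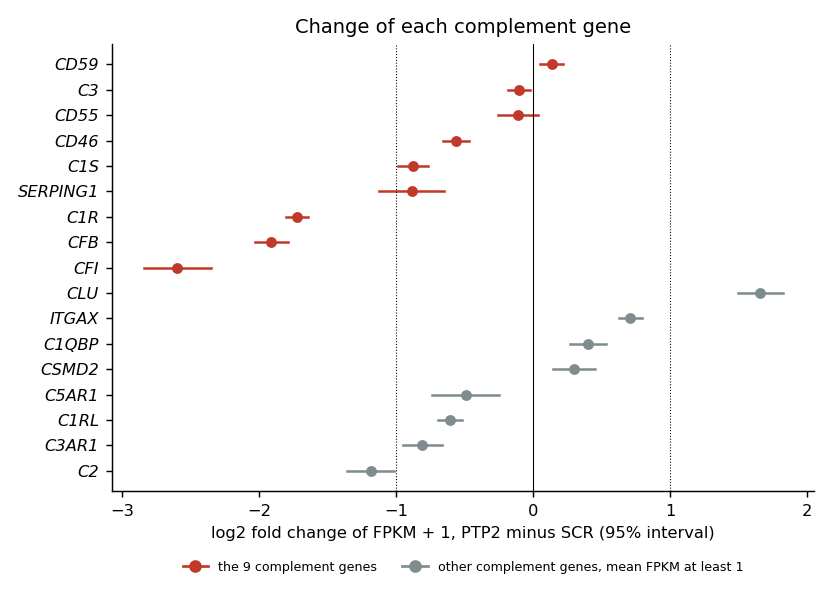
Log2 fold change of FPKM + 1, PTP2 minus SCR, on the horizontal axis, with its 95% interval from limma, for the 9 complement genes (red) and 8 other complement genes with a mean of at least 1 FPKM in either group (grey). Solid and dotted lines mark 0 and a 2-fold change, and CFI lies farthest to the left at -2.60 while CLU lies farthest to the right at 1.66.

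In order of FPKM in the SCR libraries, the genes stood as C3, CD46, CD59, C1R, C1S, CD55, CFI, CFB and SERPING1. The means ran from 173 FPKM to 0.91 FPKM, and no 2 neighbours in this order overlapped between libraries. In the PTP2 libraries the order was C3, CD59, CD46, C1S, CD55, C1R, CFB, CFI and SERPING1. CFB at 1.62 ± 0.0424 and CFI at 1.36 ± 0.205 FPKM (SD, n = 2) were the closest to each other at the low end, and their nearest libraries differed by less than the SD of CFI. The nearest libraries of C1S and CD55, at 15.80 and 15.12 FPKM, also differed by less than the SD of CD55 (0.827). FPKM levels of different genes also depend on the transcript length used, and 6 of these 9 genes have more than 1 listed transcript. Taken as a sum, the 9 genes made 296 ± 1.22 FPKM in PTP2 and 389 ± 2.08 FPKM in SCR (SD, n = 2). C3 alone made 54.5% of that sum in PTP2 and 44.6% in SCR. C1R, C1S and CFB together fell to 30.6 FPKM from 84.4 FPKM, a mean 63.7% lower, whereas the summed CD46, CD55 and CD59 stood at 102 FPKM in PTP2 and 117 FPKM in SCR, a mean 12.2% lower. These sums are descriptions and were not tested.

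The wider complement system was read from a list of 50 other genes. Of these, 34 had a value and 16 were listed without one in any library, among them the C1q chains C1QA, C1QB and C1QC. Over these 34 genes, 12 passed an adjusted p of 0.05, 5 higher and 7 lower, against 57.9% of all genes in either direction, and the median log2 fold change was -0.03. Of the 34, 9 reached a mean of 1 FPKM in at least 1 group, and the others lay below it in both. All 9 of these passed, with a median log2 fold change of -0.49, against 74.8% of all genes at this level, whose median was 0.06. This minimum also keeps genes that are high in 1 group alone, so these counts are a description. Recognition and initiation genes had 1 higher and 3 lower among 11 with a value. The membrane regulators had 1 of each among 4, and the receptors had 2 of each among 7. None of the 6 terminal pathway genes or of the 2 alternative pathway genes CFD and CFP with a value passed the test or reached a mean of 1 FPKM, and 0 of these 8 had an unadjusted p under 0.05 (limma).

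Clusterin (CLU), a secreted chaperone that also binds the terminal complex, was the most abundant secreted gene of this list in PTP2 and moved upwards. It had 92.2 and 94.4 FPKM in PTP2 and 30.3 and 27.6 FPKM in SCR, so that it rose 3.22-fold (log2 fold change 1.66, standard error 0.06, adjusted p = 3.84e-04, limma). C1QBP, a mainly mitochondrial protein that can bind C1q, rose from 75.0 to 99.1 FPKM (log2 fold change 0.40, adjusted p = 0.00407), a call lost without PTP2 replicate 2 (0.0593) or SCR replicate 2 (0.0533). The receptor for the C3a fragment, C3AR1, fell from 4.30 to 2.02 FPKM (log2 fold change -0.81, adjusted p = 9.68e-04). C5AR1, the receptor for C5a, fell from 5.35 to 3.52 FPKM (log2 fold change -0.49, adjusted p = 0.0126), and this was lost without PTP2 replicate 2 (0.0640), SCR replicate 1 (0.123) or SCR replicate 2 (0.151). ITGAX, the alpha chain of complement receptor 4, rose from 0.75 to 1.86 FPKM (log2 fold change 0.71, or 1.2 with a pseudocount of 0.1, adjusted p = 4.84e-04), while ITGB2, which encodes its partner chain, was at 0.10 FPKM or less in every library. CSMD2, a transmembrane protein with complement control repeats, rose from 8.24 to 10.4 FPKM (log2 fold change 0.30, adjusted p = 0.0148), and the call was lost when any of the 4 libraries was left out (0.0617 to 0.133).

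C4A and C4B are near-identical copies whose reads cannot be assigned with certainty, and each stayed below 0.5 FPKM in all 4 libraries. C4A passed the test at 0.05 (adjusted p = 0.0123) and C4B did not (0.0745). COLEC10 and SUSD4 were the other genes that passed it, both under 0.5 FPKM in every library.

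**Figure D3:**
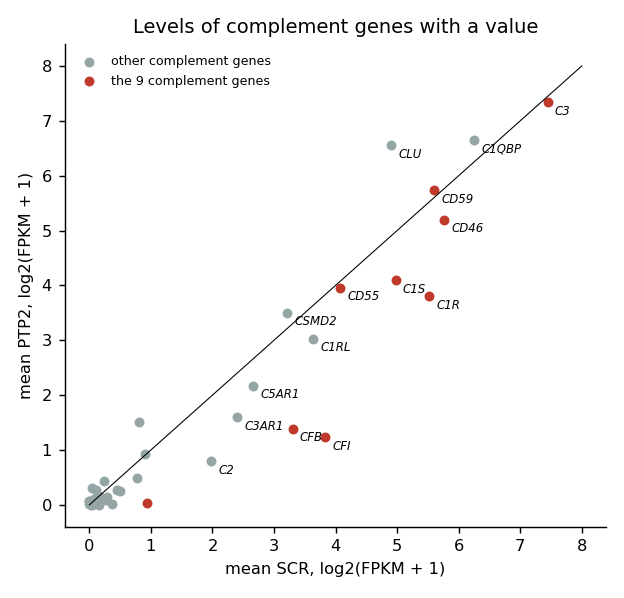
Mean level of complement genes with a value, as log2(FPKM + 1), in SCR (horizontal axis) and PTP2 (vertical axis, 2 libraries per mean), with the 9 genes in red, 33 others in grey and a diagonal of equal levels. C1R, CFB and CFI lie below the diagonal, C3 and CD55 lie close to it and CLU lies above it.

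Promoter windows from RefSeq (GRCh38.p14), running from 250 bases before to 50 bases after a gene start, were read for 4 short motifs tied to inflammatory and interferon signalling, on both strands. Windows were found for C1R (2), CFB (1), CFI (1), CD46 (2), CD55 (1) and CD59 (4). The shares of all windows given below count windows and not genes, so a gene with more windows has more chances of a match. The NF-kappa B motif (GGG, any 2 bases, TTTCC) was in none of them, and in 1.91% of the 34943 windows of all genes. The interferon-stimulated response element (ISRE: GAAA, any 2 bases, GAAA) was in the CFB window and in 3.57% of all windows. The STAT motif TTCNNNGAA was in windows of CFB, C1R and CD59 and in 7.66% of all, and the C/EBP motif TTGCNNAA was in windows of C1R and CD59 and in 10.5% of all. The STAT match of CD59 was 1 site that lay in overlapping windows. The windows of CFI, CD46 and CD55 held none of the 4. Some of the matches are shown, for 2 genes that fell and for CD59, which did not. Each is given as 30 bases, read 5′ to 3′ on the strand of the gene. The matching bases are in capitals, and no match shown overlaps another. Not shown is a further C/EBP match of C1R, 167 to 160 bases before the second start. The C/EBP matches of CD59, 191 to 184 and 53 to 46 bases before another of its starts, are not shown either. The starts are those of RefSeq, and for CFB this is base 31946095, which lies inside the gene as the deposited table places it, so both CFB stretches fall within that span.
CFB, ISRE on the opposite strand, 140 to 131 bases before the start, chr6:31945945-31945974: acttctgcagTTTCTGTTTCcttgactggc
CFB, STAT, 92 to 84 bases before the start, chr6:31945993-31946022: cgcttggatgTTCCGGGAAagtgatgtggg
C1R, C/EBP on the opposite strand, 106 to 99 bases before the first start, chr12:7092533-7092562: agatcttttgtTTATGCAAatagttcattc
C1R, STAT, 86 to 78 bases before the second start, chr12:7091960-7091989: gccagtcctaTTCCTGGAAggggaggggag
CD59, STAT, 128 to 120 bases before the first start, chr11:33736588-33736617: ccacccggccTTCTCAGAAcctgggccagg
A match is a string of letters and not a measured binding site. The STAT motif was thus in windows of CFB and C1R, which fell, and of CD59, which did not. CFI and CD46, which fell, held none of the 4 motifs in these windows. C3, C1S and SERPING1 had no window, and the part of these motifs in the changes was not tested.

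The direction of each of the 9 genes was the same under all alternatives that gave a value, from 9 for SERPING1 to 10 for the others. C1R, C1S, CFB, CFI and CD46 stayed at an adjusted p of at most 0.05 in all 10, with a highest value of 0.0276 for CD46. C3 and CD59 did so in 3 of 10 each, CD55 in 0 of 10 (limma, adjusted p = 0.0715 to 0.421) and SERPING1 in 7 of 9.

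**Figure D4:**
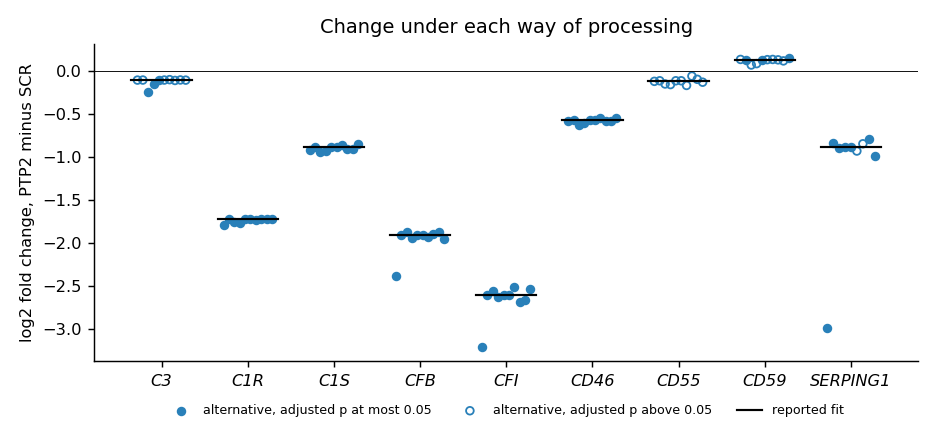
Log2 fold change, PTP2 minus SCR, of the 9 complement genes under the reported fit (black line) and under each alternative way of processing (points, 9 for SERPING1 and 10 for each other gene), filled where the adjusted p from limma was at most 0.05 and open where it was above. C1R, C1S, CFB, CFI and CD46 have filled points throughout, whereas CD55 has open points throughout.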

How the data were processed

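The authors deposited FPKM values for 4 libraries of U87 cells, rounded to 2 decimals, and the submitters' notes name HISAT2 2.1.0 and hg19. The counting program and annotation are not given in the sources used here. Of 18741 matched genes, 99.6% overlapped their RefSeq position on GRCh38.p14, so coordinates are given as GRCh38. Reads were single-end, 50 bases. None of 66380 FPKM values differed between both deposited tables. Columns of the authors' own comparison (fold changes, significance values and group means) were not used.

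The 16595 genes with a value above 0 were tested with limma 3.58.1 (R 4.3.3; lmFit and eBayes, default options) on log2(FPKM + 1), group as the only term, with Benjamini-Hochberg adjustment over all of them. This scale understates changes of low genes. With 2 libraries against 2, an exact permutation test cannot go below p = 0.3333 (two-sided). Depth was estimated by fitting the step of single reads over 211 to 239 short genes with 1 transcript per library, where 86.1% to 92.1% of the values came within 0.2 of a whole read. This used the transcript length less 40 bases, which gave the clearest steps of 12 corrections tried, so that these shares are of the best-scoring correction and the depths are estimates. Named genes were PTPRN, the 9 genes and all other complement genes with a mean of at least 1 FPKM, and a further few were named after their values were seen (ITGB2, the C1q chains, CFD, CFP, C4A, C4B, COLEC10 and SUSD4). Of the other complement genes, 1 is not reported by name here. Genes, lists and motifs were chosen with earlier results of these data known. Alternatives were a pseudocount of 0.1, a minimum of 1 FPKM in 2 or more libraries, quantile normalization, median-ratio scaling, an eBayes trend, a replicate block and leaving out each library.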

Additional observations from a re-analysis of the deposited data

How the results depend on the processing

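With a pseudocount of 0.1, the genes past both thresholds numbered 0 of the 9, 0 of the 34 other complement genes and 0 of all genes (limma), while 7, 20 and 10185 had an unadjusted p under 0.05. With the replicate block they also numbered 0, 0 and 0 (unadjusted 8, 14 and 10108). The cause of either loss was not tested. The fits that leave out 1 library, which have fewer degrees of freedom, gave 0 to 0 in each of these counts (unadjusted 8 to 9, 13 and 8700 to 8790). In place of 8, they called 5 to 7 of the 9 genes at 0.05 (5 without PTP2 replicate 1 and 5 without PTP2 replicate 2), and of all genes 6181 to 6332 in place of 9603. In place of 3, 3 and 1111, the other alternatives gave 3, 3 and 1134 to 1289. The log2 fold change of PTPRN was between -2.83 and -2.71. The replicate numbers of the titles do not pair the libraries by any label. Same-numbered libraries had a correlation of deviations of 0.06, and the replicate block left 6 of the 9 genes at an adjusted p of at most 0.05, without C3 (0.0807) and CD59 (0.0546). SERPING1 has no value with a minimum of 1 FPKM. No alternative turned the direction of PTPRN, of the 9 genes or of the other complement genes with a mean of at least 1 FPKM, and the direction of the rest was not examined. Depth limits SERPING1 and the PTP2 values of CFI and CFB most.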
